A study of Homo sapiens with 16 samples.

Results

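Intergenic H3K9me3 regions outside chromosome 19 were taken from the region lists of PC9 cells treated with osimertinib or with vehicle. A region belonged to the set if the authors annotated it as distal intergenic and if it lay on any chromosome other than 19. The rule took 758 of the 2073 H3K9me3 regions with osimertinib and 1120 of the 2749 with vehicle, 1878 of the 59617 regions in the 8 lists analysed. Without regions that start within the first 50 Mb of chromosome 5, 672 and 888 were left. PC9 is a human lung cancer cell line (non-small cell) with an activating EGFR mutation, and the cells used here are labelled wild type, that is, without an engineered change. One group received osimertinib, an inhibitor of mutant EGFR, and the other DMSO, the vehicle. Each treatment has 1 library per target, for H3K9me3, the demethylase KDM1A, H3K4me1 and H3K4me3. The dose and time of osimertinib in the binding assay are stated nowhere in the sources used here, and the 6 RNA samples and 2 IgG samples were not analysed here.

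H3K9me3 is trimethylation of lysine 9 of histone H3. It is placed mainly by SUV39H and SETDB1 enzymes, is bound by HP1 proteins and marks compact, silent chromatin. It is best known over the satellite arrays around centromeres, over transposons and other repeats, and over arrays of zinc finger genes, many of which lie on chromosome 19. H3K4me1 and H3K4me3 mark enhancers and active promoters and are normally found apart from H3K9me3, and KDM1A removes methyl groups from mono- and dimethylated H3K4.

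All regions are 2 kb wide and are placed on GRCh38. A further column repeats this width for 191 regions of the set with osimertinib (25.2%) and 153 with vehicle (13.7%). Its meaning is not stated in the sources used here. With 1 library per treatment there was no replicate spread and no test could be made, so no p-value is given. Shares carry Clopper-Pearson 95% intervals, differences of shares carry Newcombe 95% intervals and ratios of counts carry intervals from the exact binomial distribution. All of them cover counting error only, and neighbouring regions are not independent. A difference below therefore compares 2 libraries and cannot be told apart from a difference between their depth or enrichment.

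The DNA of whole regions could not be read without a genome, but 11 different RefSeq promoter windows (GRCh38.p14, 250 bases before to 50 after a transcription start, 300 bases each) touch regions of the set, 6 with osimertinib and 7 with vehicle, 2 of them in both lists. The windows below are shown because they lie in the region-richest locus, in a region pair shared by the treatments, or carry the 10-letter word found in more of the 11 windows than any other. Capitals mark that word, AATTGTGACA or TGTCACAATT on the other strand, matches of which never overlap here. It is in 4 of the 11 windows, the next word being in 3, and was chosen for that number. Both strands were searched in all 35116 RefSeq promoter windows, of which 54 hold it (0.154%), 3 of them more than once. The word was picked from the 11 windows themselves, so its higher share among them follows in part from that choice. Those on chromosome 7 that hold it are also neighbours and not independent. The first window, on the plus strand at chr7:56658899-56659198, lies inside a vehicle region of rank 1162 of 2749 by signal and holds the word at 1 place.
LOC102723684: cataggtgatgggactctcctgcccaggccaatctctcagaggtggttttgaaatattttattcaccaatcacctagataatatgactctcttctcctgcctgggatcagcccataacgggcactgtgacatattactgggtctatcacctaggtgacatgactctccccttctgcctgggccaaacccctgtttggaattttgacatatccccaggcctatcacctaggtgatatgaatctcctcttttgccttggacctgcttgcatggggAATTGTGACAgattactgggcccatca
The next window, on the plus strand at chr7:56666920-56667219, lies inside an osimertinib region of rank 1181 of 2073 and also holds it at 1 place.
LOC105375289 first start: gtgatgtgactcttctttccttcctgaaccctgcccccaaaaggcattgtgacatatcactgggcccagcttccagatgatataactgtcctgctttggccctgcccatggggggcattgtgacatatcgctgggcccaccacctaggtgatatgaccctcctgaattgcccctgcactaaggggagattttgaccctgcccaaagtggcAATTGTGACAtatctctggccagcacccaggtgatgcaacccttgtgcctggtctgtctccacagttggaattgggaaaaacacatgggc
A further start of the same gene, on the plus strand at chr7:56668009-56668308, lies inside that osimertinib region and also inside a vehicle region of rank 322. It holds the word at 2 places.
LOC105375289 second start: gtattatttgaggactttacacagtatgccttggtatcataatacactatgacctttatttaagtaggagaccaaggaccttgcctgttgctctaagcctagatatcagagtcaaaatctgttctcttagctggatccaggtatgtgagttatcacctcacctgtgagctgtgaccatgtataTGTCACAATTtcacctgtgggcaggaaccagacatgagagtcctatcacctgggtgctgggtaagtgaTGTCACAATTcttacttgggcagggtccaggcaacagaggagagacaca
On chromosome 16 the word occurs at 1 place in a plus-strand window at chr16:35296095-35296394, which overlaps the start of a vehicle region of rank 1463.
LOC124903768: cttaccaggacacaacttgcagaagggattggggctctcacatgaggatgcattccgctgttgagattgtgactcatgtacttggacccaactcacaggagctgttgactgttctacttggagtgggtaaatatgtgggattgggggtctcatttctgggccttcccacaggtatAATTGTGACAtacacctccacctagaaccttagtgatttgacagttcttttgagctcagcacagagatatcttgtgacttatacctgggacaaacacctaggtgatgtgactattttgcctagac
The other window found in both lists, on the plus strand at chr22:10741842-10742141, lies in regions of rank 1515 with osimertinib and 1905 with vehicle. Its 35 CpG dinucleotides compare with a median of 14 over all RefSeq promoter windows, but the windows shown above hold only 1, 1, 0 and 1. Those not shown range from 2 to 35.
LOC105379418: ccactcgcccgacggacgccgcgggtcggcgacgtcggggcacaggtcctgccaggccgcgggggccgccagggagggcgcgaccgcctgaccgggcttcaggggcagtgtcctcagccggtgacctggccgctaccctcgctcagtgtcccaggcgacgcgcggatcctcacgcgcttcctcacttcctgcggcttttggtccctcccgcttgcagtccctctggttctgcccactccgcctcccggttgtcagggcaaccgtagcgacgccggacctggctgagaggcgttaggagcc
The same chromosome 7 locus includes MIR4283-1, 1 of 2 microRNA genes whose 80-base hairpins are identical at 80 bases. The seed of the mature microRNA, bases 2 to 8, is in capitals, and the copies lie at chr7:56955785-56955864 (minus strand) and chr7:63621090-63621169 (plus strand).
hsa-miR-4283: uGGGGCUCagcgaguuu
Neither hairpin lies inside a region of the set. MIR4283-1 was the assigned gene of 2 regions with osimertinib, 11.2 and 14.1 kb from its start, and of 2 with vehicle, 4.82 and 13.1 kb from its start. MIR4283-2 was assigned to 2 regions with osimertinib, 10.9 and 6.20 kb from its start, and to none with vehicle.

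The osimertinib list held fewer intergenic regions outside chromosome 19 than the vehicle list. Its 758 regions against 1120 give a log2 ratio of -0.56 (95% interval -0.70 to -0.43), beside -0.41 (-0.49 to -0.32) for the whole H3K9me3 lists. Of the 362 fewer regions, 146 were in the first 50 Mb of chromosome 5, which held 86 regions with osimertinib and 232 with vehicle (log2 ratio -1.43, -1.81 to -1.07). Without that stretch the ratio was -0.40 (-0.55 to -0.26), beside -0.29 (-0.38 to -0.20) for the whole lists without it. The class made up 36.6% of the osimertinib list (34.5% to 38.7%) and 40.7% of the vehicle list (38.9% to 42.6%), a difference of -4.18 points (-6.93 to -1.40). Without the chromosome 5 stretch the difference was -2.78 points and its interval included 0 (-5.64 to 0.0951). When both lists were held to the 2073 strongest regions, the numbers were 758 and 781. Among regions outside chromosome 19 the intergenic share was 64.5% with osimertinib and 61.6% with vehicle, a difference of 2.90 percentage points whose interval includes 0 (-0.646 to 6.41). On chromosome 19, by contrast, 13.8% and 14.5% of regions were intergenic.

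Chromosome 7 held 138 of the regions with osimertinib (18.2%) and 177 with vehicle (15.8%). Chromosome 5 held 96 with osimertinib (12.7%) and 246 with vehicle (22.0%), and was the largest with vehicle. The interval of the difference in share excluded 0 for 7 of 23 chromosomes, without any adjustment for their number. Chromosomes 10, 16, 17 and Y took a larger share with osimertinib, and chromosomes 1, 5 and X a smaller one. On chromosome 10 there were 66 regions with osimertinib (8.71%) and 53 with vehicle (4.73%). Chromosome 17 had 43 with osimertinib (5.67%) against 21 with vehicle (1.88%), and chromosome Y had 61 (8.05%) against 25 (2.23%). Chromosome X had 40 with osimertinib (5.28%) and 103 with vehicle (9.20%), and chromosome 1 had 33 (4.35%) and 91 (8.12%). Without the first 50 Mb of chromosome 5 the interval for chromosome 5 included 0 (-1.34 to 1.30 points), that for chromosome 3 excluded it (-2.72 points, -5.28 to -0.0687), and the other 6 stayed on their side. That stretch also stands out in other lists, and unevenly: it held 22.9% of all KDM1A regions with osimertinib and 12.7% with vehicle, against 1.27% and 0.430% of H3K4me1 regions.

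**Figure D1:**
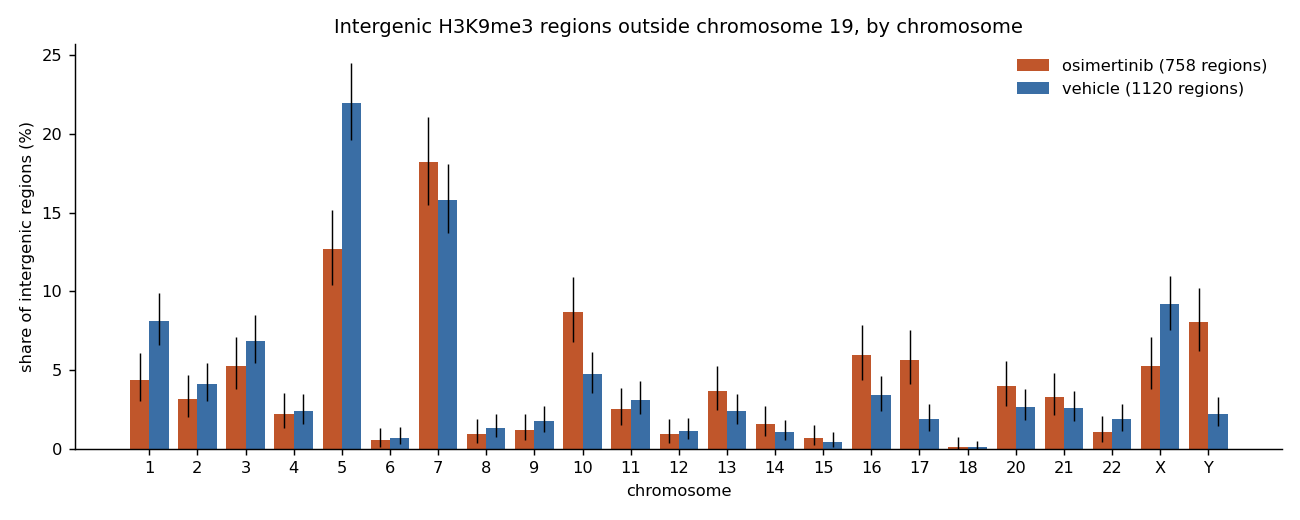
Share of intergenic H3K9me3 regions outside chromosome 19 (%, y axis) on each chromosome (x axis) with osimertinib (orange, left bars) and vehicle (blue, right bars), with Clopper-Pearson 95% intervals for counting error only. Chromosome 5 holds 12.7% with osimertinib and 22.0% with vehicle, while chromosome Y holds 8.05% and 2.23%.

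The regions were unevenly spread over the genome. In bins of 10 Mb, 26 of the 173 bins with any region held 15 or more regions of both lists together, and these 26 contained 76.1% of the osimertinib regions and 72.0% of the vehicle regions. The following bins were picked after their values were seen. Between 60 and 70 Mb of chromosome X there were 20 regions with osimertinib and 80 with vehicle, a log2 ratio of -2.00 (-2.79 to -1.28). On chromosome 5, the bin from 20 to 30 Mb held 48 with osimertinib and 111 with vehicle (-1.21, -1.73 to -0.71). The opposite held for 10 to 20 Mb of chromosome Y, with 58 regions with osimertinib and 20 with vehicle (1.54, 0.78 to 2.35), and for 20 to 30 Mb of chromosome 17, with 40 and 18 (1.15, 0.32 to 2.04). Between 60 and 70 Mb of chromosome 7 the numbers were close, 55 with osimertinib and 58 with vehicle, and the interval of the ratio spans 0 (-0.08, -0.64 to 0.48).

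When regions of 1 list were chained across gaps of at most 100 kb, 522 of 758 regions with osimertinib (68.9%, 65.4% to 72.1%) fell into 92 clusters of 2 or more, and 784 of 1120 with vehicle (70.0%, 67.2% to 72.7%) into 148. The same chaining placed 80.8% of the whole osimertinib list and 80.1% of the whole vehicle list in clusters, and 67.0% and 70.4% of all regions outside chromosome 19, so clustering was not more frequent in the set. H3K9me3 regions in gene bodies outside chromosome 19 were clustered in 33.7% and 53.3% of cases, and intergenic regions on chromosome 19 in 86.3% and 88.9%. Clusters of 10 or more numbered 14 with osimertinib, holding 267 regions, and 19 with vehicle, holding 324. The 5 clusters with most regions with osimertinib were that of AC140113.4 on chromosome Y with 50 regions, that from AC118758.1 to NCOR1P3 on chromosome 7 with 31, that of DEFB115 on chromosome 20 with 23, that from AC243725.1 to ABBA01006766.1 on chromosome 17 with 21 and that of AL590623.1 on chromosome 10 with 20. With vehicle they were a 1252 kb cluster from AC093392.1 to NCOR1P3 on chromosome 7 with 74 regions, that from SHC1P1 to ZC4H2 on chromosome X with 27, and 3 on the short arm of chromosome 5, from HPRT1P2 to RPL19P11 with 22, from LINC02109 to AC010374.1 with 18 and from PURPL to LINC02103 with 17. Of these genes, DEFB115 encodes a beta-defensin, an antimicrobial peptide, ZC4H2 a zinc finger protein of neural development, and PURPL a long noncoding RNA induced by p53. By their symbols the others are pseudogenes, long noncoding RNA genes or genes with clone-based names.

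To compare the treatments place by place, regions of both lists were chained together at the same 100 kb, which gave 626 loci. Both treatments were present at 146 of them, osimertinib alone at 161 and vehicle alone at 319. The 146 common loci contained 76.3% of the osimertinib regions and 61.3% of the vehicle regions, so most regions lay in a chained locus that also held a region of the other list. A common locus needs no overlap: that of AC093300.1 on chromosome 5 spans 835 kb, with 7 and 23 regions and 0 shared. No share over all H3K9me3 regions chained in this way stands beside these figures. Loci of a single treatment were small, with at most 4 regions for osimertinib and 11 for vehicle. Without the first 50 Mb of chromosome 5, 118 of 557 loci were common and held 74.3% and 57.1% of regions.

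The region-richest locus lies on chromosome 7 at 56140690 to 57565521, ending within 1 Mb of a stretch without genes, and held 54 regions with osimertinib and 75 with vehicle, of which 25 and 26 overlapped a region of the other list. Their assigned genes number 37 and include the zinc finger genes ZNF479 and ZNF716, the microRNA MIR4283-1 and the pseudogenes TRIM60P16, TNRC18P3 and SLC29A4P1. Beyond the gene-free stretches, at 63428613 to 63712593, a locus with copies of the same families (TNRC18P2, SLC29A4P2 and MIR4283-2) had 14 regions with osimertinib and 9 with vehicle. Where copies are near-identical, reads may be placed at either copy, so these counts are uncertain. Only the MIR4283 hairpins were compared here, and misplacement of reads was not tested.

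Other large loci leaned to one treatment by number of regions. The AC140113.4 locus on chromosome Y (10626565 to 11035853) had 50 regions with osimertinib and 14 with vehicle, and AC069061.1 on chromosome 17 (26782844 to 26939488) had 18 and 3. PPP1R1AP2 on chromosome 16 (36123878 to 36246661) had 10 with osimertinib and 1 with vehicle. In the other direction, the BLOC1S2P1 locus on chromosome X (64485699 to 64875890) had 10 with osimertinib and 27 with vehicle, and the AC093300.1 locus on chromosome 5 (27795555 to 28630899) had 7 and 23, with no overlapping pair. Upstream of EGFR, the gene of the target of osimertinib, 5 intergenic vehicle regions formed a locus without an intergenic osimertinib region. Assigned to that gene were 3 of them, at 27.2, 36.1 and 40.5 kb before its start, and 2 of the 5 overlapped an H3K4me1 region. Osimertinib regions of other classes were not counted in loci. DEFB115 on chromosome 20 (23 with osimertinib, 15 with vehicle), IGHV1OR21-1 on chromosome 21 (12 and 13), an immunoglobulin heavy chain segment outside its home locus, and KSR1P1 on chromosome 10 (10 and 12) were occupied by both.

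**Figure D2:**
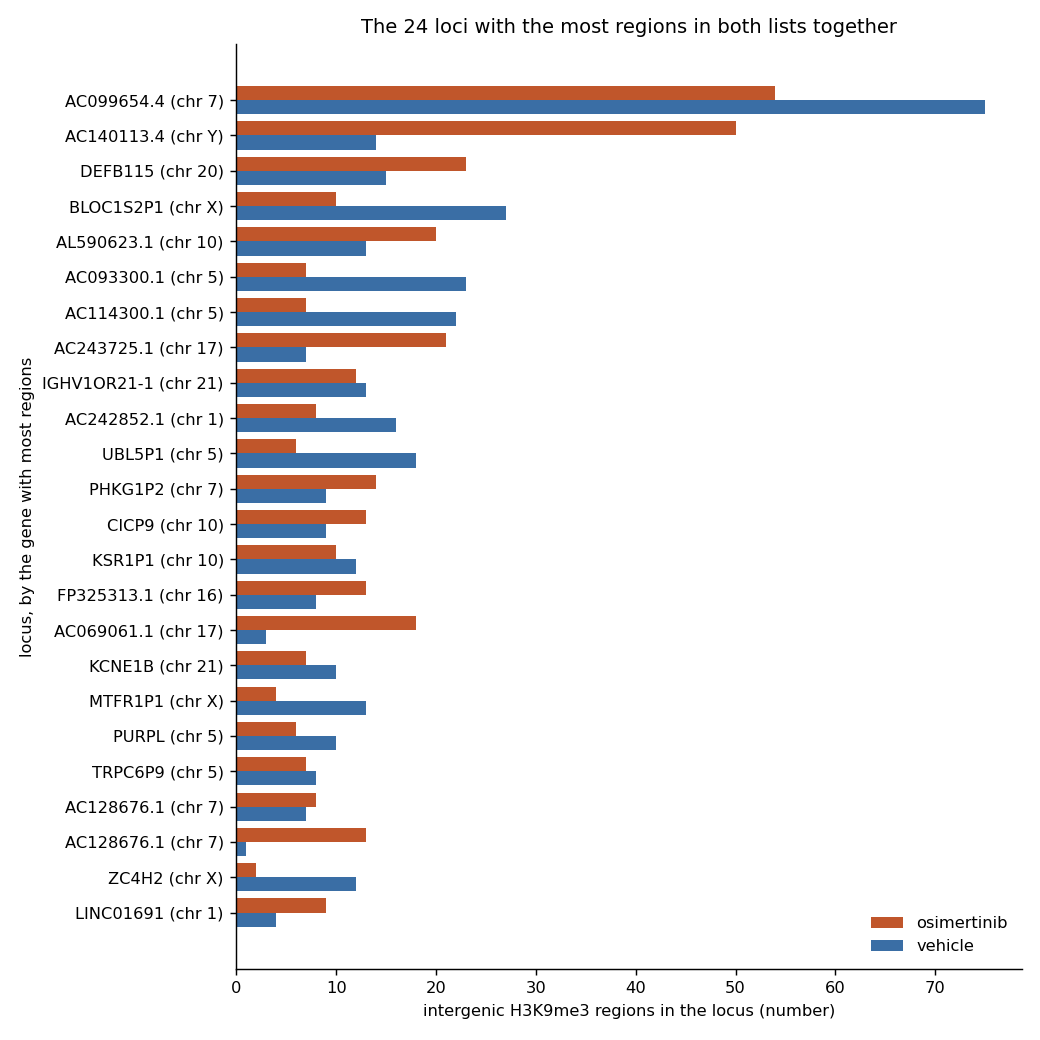
Number of intergenic H3K9me3 regions (x axis) with osimertinib (orange, upper bars) and vehicle (blue, lower bars) in the 24 loci with most regions in both lists together, each named by the gene assigned to most of its regions. The chromosome 7 locus at the top has 54 and 75, and the AC140113.4 locus of chromosome Y has 50 and 14.

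At the level of single regions, 195 of 758 with osimertinib (25.7%, 22.6% to 29.0%) overlapped a vehicle H3K9me3 region by at least 1 bp, beside 34.5% of all H3K9me3 regions with osimertinib. With vehicle it was 200 of 1120 (17.9%, 15.7% to 20.2%), beside 26.0% of that whole list. The members of the set were thus shared less often than the lists they come from, but not less often than all regions outside chromosome 19, at 22.0% with osimertinib and 14.3% with vehicle. They were shared more often than H3K9me3 regions in gene bodies outside chromosome 19, of which 14.7% and 5.44% had an overlap, by 11.1 points with osimertinib (4.50 to 16.5) and 12.4 points with vehicle (9.20 to 15.3). They were shared less often than intergenic regions on chromosome 19, at 39.5% and 31.9%, by 13.8 and 14 points, with intervals that exclude 0. Overlap is nearly reciprocal, so the counts of 195 and 200 are close by construction. The shares differ mainly through the number of members, 758 and 1120. Lists of 2073 regions each hold 758 and 781 members, and between them 24% of osimertinib and 23.9% of vehicle members overlapped. That near-equality follows from the similar numbers of members and says nothing about the treatments. Without the first 50 Mb of chromosome 5 the shares were 27.1% and 20.9%, and inside it 15.1% and 6.03%. All 195 partners of the osimertinib members were members of the vehicle set, and 193 carried the same assigned gene.

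Many members with no overlap had a region of the other list within 100 kb, but no share over all H3K9me3 regions stands beside these figures. Of the 563 such regions with osimertinib, 69.3% had a vehicle region within 100 kb and the median gap was 25.3 kb. Of the 920 with vehicle, 53.0% lay within 100 kb of an osimertinib region, and the median gap was 83.7 kb. More than 1 Mb from the other list lay 55 regions with osimertinib and 153 with vehicle. The strongest osimertinib region of the set was such a region: it lies 3.29 kb from LINC01003 on chromosome 7 (152458497 to 152460496), ranks 65 in its list, and has no vehicle region within 3085 kb. The strongest vehicle region without a close counterpart was assigned to AC242852.1 on chromosome 1 (143263065 to 143265064), ranks 2, and lies 4.10 kb from the nearest osimertinib region. RNU6-488P on chromosome 3, a spliceosomal RNA pseudogene, had the vehicle region of rank 9 with the nearest osimertinib region 899 kb away.

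The authors' signal is a height per region on a scale that is not stated, so only ranks within a list were compared, given as percentiles with 100 for the strongest region. The values ran from 0.00532 to 126 with osimertinib (median 0.663) and from 0.866 to 360 with vehicle (median 2.32). The osimertinib members had a median of 0.370, so many of their ranks rest on low values. The median percentile of the members was 27.6 in the osimertinib list and 40.8 in the vehicle list, and 27.9 and 44.1 without the first 50 Mb of chromosome 5. H3K9me3 regions in gene bodies had the reverse order, 38.4 with osimertinib and 30.8 with vehicle, and intergenic regions on chromosome 19 stood at 65.7 and 60.5. Of the osimertinib members 20.7% (17.9% to 23.8%) lay at or above the median signal of their list, against 39.8% (36.9% to 42.8%) of the vehicle members.

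The top of the lists differed further between the 2 libraries. The set held 0 of the 20 strongest regions with osimertinib and all 20 of the 20 strongest with vehicle. The top 20 are 0.965% and 0.728% of the lists. Among the 100 strongest, which are 4.82% and 3.64% of the lists, it held 2 with osimertinib and 73 with vehicle. When each list was cut into 10 equal bins by signal, the osimertinib members thinned out steadily, from 145 in the weakest bin to 8 in the strongest. The vehicle members numbered 146 in the weakest bin, 58 in the next to strongest and 118 in the strongest. By chromosome, the vehicle median was higher for 10 of the 13 chromosomes with at least 20 regions in each list. Chromosome Y had a median percentile of 16.6 with osimertinib and 87.0 with vehicle, chromosome 21 had 23.9 and 84.3, and chromosome 10 had 29.2 and 75. Chromosome 3 showed the opposite order, 30.4 with osimertinib and 23.1 with vehicle, as did chromosome 2, at 34.6 and 23.2, and on chromosome 13 the medians were 18.7 and 18.2.

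**Figure D3:**
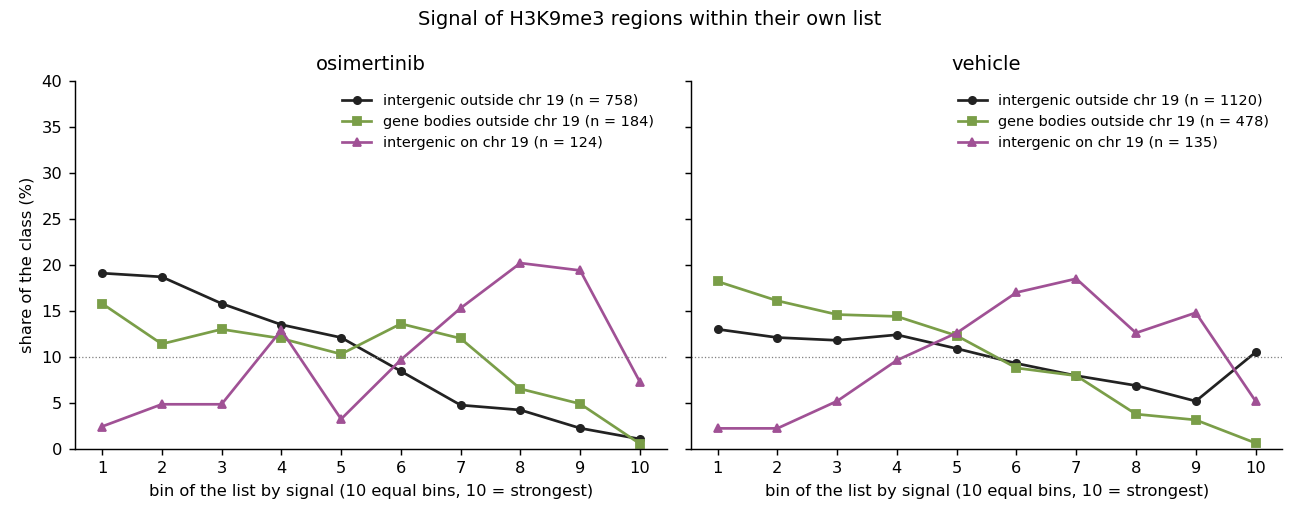
Share of each class of H3K9me3 regions (%, y axis) in 10 equal bins of its own list by signal (x axis, 10 is strongest), with osimertinib on the left and vehicle on the right; the dotted line is 10%. The set (black) has 1.06% of its regions in the strongest bin with osimertinib and 10.5% with vehicle.

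Of the 20 strongest vehicle members, 15 lay within 1 Mb of a gene-free stretch of at least 2 Mb, against 8 of the 20 strongest osimertinib members. These cuts are unlike, as the vehicle members reach down to rank 20 of their list and the osimertinib members to rank 375 of theirs. The first vehicle region is assigned to EMB, the gene of the adhesion protein embigin, although it lies 752 kb from its start on chromosome 5 (49658110 to 49660109). It had rank 160 with osimertinib and rank 1 with vehicle. A second EMB region, 810 kb from the start (49600225 to 49602224), had rank 118 with osimertinib and rank 5 with vehicle. A pair assigned to FP325313.1 on chromosome 16 (34581164 to 34583163) had rank 86 with osimertinib and rank 10 with vehicle, and was the pair with the highest mean percentile. ANKRD26P1 on chromosome 16, a pseudogene, had the vehicle regions of rank 3, 4 and 11. The one of rank 4 overlapped an osimertinib region of rank 153 by 162 bp, and the one of rank 11 an osimertinib region of rank 220. CWH43 on chromosome 4, which encodes a protein of lipid anchor remodelling, had a pair with rank 405 with osimertinib and rank 6 with vehicle. Further pairs among the highest were at AC069061.1, with ranks 202 and 62, and at CICP9 on chromosome 10, with ranks 336 and 29. Among the 10 strongest osimertinib members only those at LINC01003 and BTNL10P, a butyrophilin-like pseudogene on chromosome 1 of rank 246, were over 1 kb from any vehicle region.

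Over all 195 overlapping pairs the median percentile was 34.1 with osimertinib and 75.7 with vehicle, and the vehicle percentile was the higher one in 167 pairs and the osimertinib percentile in 28. Across the pairs the ranks were weakly related (Spearman's rho 0.241, a description over regions that share 2 libraries). Shared members ranked above the others in both treatments, with medians of 34.1 against 25.9 for unshared ones with osimertinib and 75.7 against 35.3 with vehicle.

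**Figure D4:**
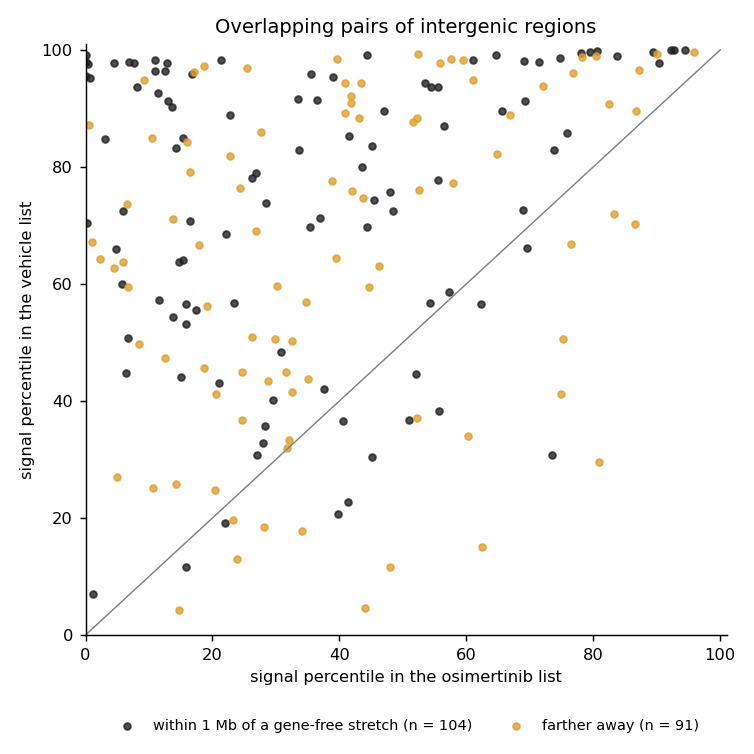
Signal percentile of 195 overlapping pairs of intergenic H3K9me3 regions in the osimertinib list (x axis) and in the vehicle list (y axis), where 100 is the strongest region and the line marks equal percentiles; 104 pairs lie within 1 Mb of a gene-free stretch (black) and 91 farther away (orange). In 167 pairs the vehicle percentile is higher.

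No centromere or repeat annotation was used, so stretches of at least 2 Mb without a RefSeq gene served as landmarks. There are 29 on 24 chromosomes. Within 1 Mb of one lay 288 of 758 members with osimertinib (38.0%, 34.5% to 41.6%), beside 20.2% of all its H3K9me3 regions, and 312 of 1120 with vehicle (27.9%, 25.2% to 30.6%), beside 17.3%. Over all regions outside chromosome 19 the shares were 31.4% and 22.9%, in promoters there 25.9% and 21.9%, and in gene bodies there 11.4% and 11.7%. The landmark is defined by the absence of genes and the set by its distance from them, so the higher share of the members is in part built into the rule. Members near a gene-free stretch were shared more often, 36.1% against 19.4% of those farther away with osimertinib (a difference of 16.7 points, 10.2 to 23.3) and 34.0% against 11.6% with vehicle (22.3 points, 16.8 to 28.1). The median signal percentile was 27.6 both near and far with osimertinib, and 63.3 near against 33.7 far with vehicle. Of the 100 strongest vehicle members, 70 were near such a stretch, and 35 of the 100 strongest osimertinib members. Those members reach down to rank 176 with vehicle and rank 847 with osimertinib, so they are unlike parts of the lists. The shared members are nearly the same pairs in both lists, 104 and 106 near a stretch. The treatments therefore differ in this share mainly through the number of members, 288 and 312 near and 470 and 808 farther away. The share was 2.14 points higher with osimertinib near a stretch (-5.47 to 9.74) and 7.73 points higher farther away (3.64 to 12.1).

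The other targets of the same cells give a readout that the choice of regions did not use. With osimertinib 144 of the 758 members overlapped an H3K4me1 region (19%, 16.3% to 22.0%), beside 7.19% of all H3K9me3 regions. With vehicle 139 of 1120 did (12.4%, 10.5% to 14.5%), beside 5.71%. All regions outside chromosome 19 had 12.7% and 8.64%. Most overlap of H3K9me3 with H3K4me1 was in this class, 144 of 149 regions with osimertinib and 139 of 157 with vehicle, and no intergenic region of chromosome 19 had any, of 124 and 135. Shared members carried it in 45.1% of cases with osimertinib and 44.0% with vehicle, and unshared ones in 9.95% and 5.54%. Near a gene-free stretch the share was 29.2% with osimertinib and 22.8% with vehicle, and farther away 12.8% and 8.42%. The EMB region of rank 1 in the vehicle H3K9me3 list also overlapped the strongest region of the vehicle H3K4me1 list, and its osimertinib partner the strongest of the osimertinib H3K4me1 list. That partner, which lies in a gene-free stretch, also overlapped the KDM1A region of rank 13 and the H3K4me3 region of rank 26. The vehicle region overlapped neither target. Whether misplaced reads contribute to such shared strong regions was not tested. At the AC140113.4 locus of chromosome Y, 16 regions with osimertinib and 13 with vehicle overlapped H3K4me1. At DEFB115 the numbers were 13 and 10, and at the large chromosome 7 locus 1 and 2.

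KDM1A regions were overlapped by 89 members with osimertinib (11.7%, 9.54% to 14.2%; 8.44% of the whole list) and 61 with vehicle (5.45%, 4.19% to 6.94%; 4.15% of the whole list), a difference of 6.29 points (3.72 to 9.05). Gene body regions had similar shares, 11.4% and 5.02%. In the first 50 Mb of chromosome 5, where KDM1A regions are dense, 26.7% of members with osimertinib and 10.8% with vehicle overlapped KDM1A, and without it the shares were 9.82% and 4.05%. The KDM1A list is itself longer with osimertinib, 8882 regions against 4731.

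H3K4me3 was overlapped by 54 members with osimertinib (7.12%, 5.40% to 9.19%; 14.5% of the whole list) and 4 with vehicle (0.357%, 0.0974% to 0.912%; 4.91% of the whole list). Members had less of it than the whole lists, which include chromosome 19. Beside all regions outside chromosome 19, at 6.04% with osimertinib and 0.660% with vehicle, the members had 7.12% and 0.357%. Gene body regions outside chromosome 19 had 2.17% with osimertinib, 4.95 points below the members (interval 1.29 to 7.40). The H3K4me3 list itself held 1503 intergenic regions with osimertinib and 464 with vehicle, with 13285 and 11621 regions in all. KDM1A, H3K4me1 and H3K4me3 were overlapped at once by 17 members with osimertinib and by 0 of 1120 with vehicle, with an upper 95% bound of 0.329%. In the whole lists it was 18 of 2073 regions with osimertinib (0.868%) and 0 of 2749 with vehicle. Of the 20 strongest members with osimertinib, 12 overlapped H3K4me3, 11 H3K4me1 and 7 KDM1A. Of the 20 strongest with vehicle, 13 overlapped H3K4me1 and none H3K4me3 or KDM1A. The former reach down to rank 375 and the latter only to rank 20, so they are unlike parts of the lists.

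**Figure D5:**
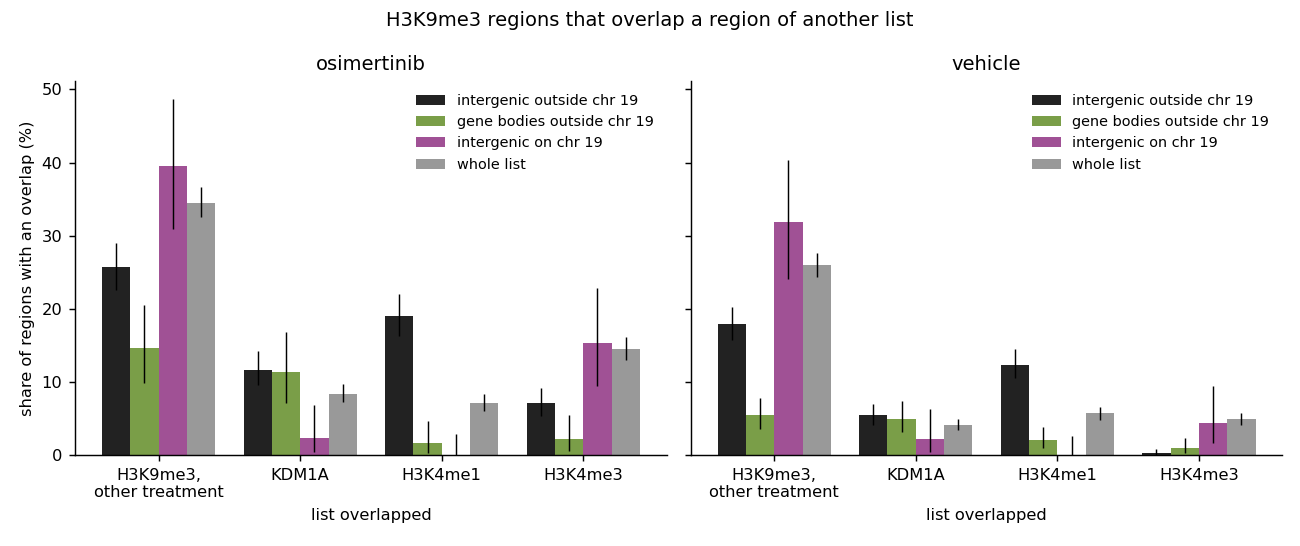
Share of H3K9me3 regions (%, y axis) that overlap a region of the other treatment's H3K9me3 list or of the KDM1A, H3K4me1 and H3K4me3 lists of the same treatment (x axis), with osimertinib on the left and vehicle on the right, for 4 classes of regions and with Clopper-Pearson 95% intervals. For the set (black) H3K4me1 is overlapped by 19% with osimertinib and 12.4% with vehicle, above the whole lists (grey) at 7.19% and 5.71%.

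The members lay farther from the starts of their assigned genes than gene body regions did, which the distal intergenic class in part implies, and few were assigned to a gene that RefSeq classes as protein-coding. The median distance to the assigned start was 59.0 kb with osimertinib and 44.2 kb with vehicle, against 15.9 and 19.5 kb for gene body regions. Within 10 kb of the start lay 93 members with osimertinib (12.3%) and 168 with vehicle (15%). RefSeq classed the assigned gene as a pseudogene for 33.1% of members with osimertinib and 35.9% with vehicle, and as protein-coding for 12.3% and 12.1%, against 36.0% and 34.7% over the whole lists. For 48.3% and 42.6% no RefSeq entry matched the symbol, beside 33.5% and 32.4% of the whole lists, so the class of their genes is not known here. Genes with clone-based names alone had 43.5% and 38.4% of members, beside 31.1% and 29.8% of the whole lists. Zinc finger genes, the family best known for H3K9me3, were assigned to 15 members with osimertinib (1.98%) and 21 with vehicle (1.88%), against 7.61% and 8.37% of gene body regions outside chromosome 19. The whole lists had 27.8% and 23.1%, but they include chromosome 19, which the set leaves out by its rule. None of the osimertinib and 0.379% of the vehicle members at least 50 kb from a start had one. For the other families the share of the whole list stands beside that of the members. Small RNA genes were assigned to 29 members with osimertinib (3.83%, beside 3.09% of the whole list) and to 67 with vehicle (5.98%, beside 4%). Genes with long noncoding names had 39 with osimertinib (5.15%, beside 5.89%) and 85 with vehicle (7.59%, beside 7.13%). Olfactory receptor genes had 6 with osimertinib (0.792%, beside 0.917%) and 10 with vehicle (0.893%, beside 0.728%). MicroRNA genes had 9 with osimertinib (1.19%, beside 1.01%) and 14 with vehicle (1.25%, beside 0.873%). DUX genes, relatives of the germline factor DUX4, had 1 with osimertinib (0.132%, beside 0.386%) and 5 with vehicle (0.446%, beside 0.582%). Cadherin and protocadherin genes had 7 each (0.923% and 0.625%, beside 0.724% and 1.13%), of which 2 with osimertinib and 0 with vehicle were outside the first 50 Mb of chromosome 5.

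The members had 364 different assigned genes with osimertinib and 555 with vehicle. The 188 genes in both are 51.6% of the osimertinib genes and 33.9% of the vehicle genes, without a share over all H3K9me3 regions to set beside them. Most genes had 1 member, 70.3% with osimertinib and 67.0% with vehicle. The genes with most members with osimertinib were AC140113.4 (50), AC128676.1 (24), DEFB115 (23), AL590623.1 (22), AC069061.1 (19), KSR1P1 (16), IGHV1OR21-1 (12) and ABBA01006766.1 (11). With vehicle AC242852.1, KSR1P1, AC128676.1 and AC122694.1 had 16 each, DEFB115 and AL590623.1 15 each, AC140113.4 14, and IGHV1OR21-1 and AC114300.1 13 each, tied for the last place. Of the vehicle genes AC122694.1 and AC114300.1 lie within the first 50 Mb of chromosome 5, and without that stretch the last place went to MTFR1P1 on chromosome X with 11.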

How the data were processed

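H3K9me3, KDM1A, H3K4me1 and H3K4me3 regions of PC9 cells were analysed from 8 libraries, 1 per target and treatment, grouped by the sample titles. The authors' tables give 2 kb regions with a signal, an annotation class, an assigned gene and a signed distance in bp to its start, per the file headers. Reads were placed on GRCh38 (hg38), and Bowtie2 2.3.4, HISAT2 and featureCounts are named without a role, per the submitters' processing notes. No peak caller, threshold, control or scaling of the deposited signal is named in the sources used here, so signal was compared only by ranks within a list. Read depth is unknown, and the number of regions limits the precision.

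Gene IDs were matched to symbols for 99.4% and 99.5% of the H3K9me3 regions. RefSeq tables (GRCh38.p14) gave gene classes, sequences and stretches without genes. Regions within 100 kb were chained into clusters within a list, or into loci over both lists. Overlap means at least 1 bp and was equal to bedtools 2.31.1 in 4 of 4 comparisons, and overlap and chaining were tested on simulated regions. Python 3.11.15, pandas 2.3.3 and scipy 1.17.1 were used.

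No test between treatments was made. Genes were named by rule: those of the 10 strongest members per list, the 8 genes with most members, the ends of the 5 largest clusters, the 8 strongest shared pairs, and the 5 strongest members with no counterpart within 1 kb. Loci and bins outside this rule were picked after their values were seen. The members, gene families and this rule were chosen with earlier results of these data known, and the loci, bins, gene-free stretches and the 10-letter word (the one in more of the windows inside members than any other) were chosen after seeing the data. Alternatives changed list length, signal threshold, overlap, gap, distance, merging and chromosomes.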

Additional observations from a re-analysis of the deposited data

How the results depend on the processing

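No paired analysis was possible because each treatment has 1 library and no result comes from a test. Of 70 alternative values for the main results 31 stayed within the 95% interval (counts: within 1.5 times) and 39 moved; the causes were not tested beyond what each alternative removes. Counts kept their order under all 6 alternatives, with 157 osimertinib and 446 vehicle members at or above the median signal and 414 and 528 at least 50 kb from a start. At equal list length, however, they were close, 758 and 781. The share of the list was 15.1% and 32.4% above the median signal, and for vehicle 37.3% without the chromosome 5 stretch and 37.7% at equal list length. Sharing was 18.5% with osimertinib and 12.6% with vehicle at 1000 bp of overlap, 32.2% and 22.2% within 1 kb, 52.1% and 35.4% within 10 kb, 33.1% and 12.1% above the median signal, and for vehicle 20.9% without the chromosome 5 stretch and 23.9% at equal list length, beside 24% with osimertinib. Clustering was 62.1% and 61.7% at a gap of 50 kb, 75.7% and 76.7% at 200 kb, and for vehicle 66.1% without the chromosome 5 stretch and 74.9% at equal length; the treatments changed order at 50 kb and without that stretch. The median percentile was 23.7 for osimertinib members at least 50 kb from a start and 44.1 for vehicle without the chromosome 5 stretch. Overlap at 1000 bp was 8.31% and 3.48% with KDM1A and 13.6% and 9.29% with H3K4me1, and within 1 kb with osimertinib 16.0% and 23.4%. Without the chromosome 5 stretch vehicle members had 4.05% with KDM1A and 15.3% with H3K4me1. Shares near gene-free stretches, with alternatives added after seeing the data, were 32.1% and 24.6% with the longest stretch of each chromosome only, 46.3% and 36.3% within 2 Mb, and 31.9% for vehicle without the chromosome 5 stretch. Of 86 values for single chromosomes and families 15 moved. Without the chromosome 5 stretch these were chromosome 5 at 1.49% and 1.58%, vehicle chromosomes 1 at 10.2%, 3 at 8.67%, 7 at 19.9% and X at 11.6%, cadherins at 0.298% and 0%, and vehicle small RNAs at 4.62%. At 50 kb or more from a start they were zinc finger genes at 0% and 0.379%, DUX at 0% in both and clone-based names at 51.4% and 43.9%.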
